A study of Saccharomyces cerevisiae with 27 samples.

Results

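The windows described here are the 50 bp pieces of the budding yeast genome that stood high in both histone marks the study mapped, H3K4me3 and H3K79me3. A window was a member when the log2 ratio of the precipitate over its input was at least 1, a 2-fold enrichment, for both marks in the wild-type strain BY4741. The members were thus chosen by their measured H3K4me3 and H3K79me3 in BY4741, and those values are given as a description. Of 241434 nuclear windows 6239 met the rule, which is 2.58% of them. They made up 11.1% of the 56176 windows high in H3K4me3, while 14.9% of all nuclear windows were high in H3K79me3. They made up 17.4% of the 35918 windows high in H3K79me3, while 23.3% of all nuclear windows were high in H3K4me3. Windows high in 1 mark alone numbered 49937 for H3K4me3 and 29679 for H3K79me3. Most windows of either mark would be of that kind at these shares, so nothing is read from those counts.

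The study, in Saccharomyces cerevisiae, asked how the INO80 chromatin remodelling complex bears on the border between active and silent chromatin. Chromatin immunoprecipitation and sequencing (ChIP-seq) of both marks was done in a deletion strain of ARP5, called arp5 here, and in BY4741, with 1 library of each mark and 1 input per strain. Those cells grew in YPD medium to an OD600 of 0.8 to 1 and were crosslinked with formaldehyde, and their chromatin was sonicated. Arp5 itself was mapped in the strain CY1838 with 1 library, in cells arrested in G2/M with nocodazole and then let go into alpha-factor until an OD600 of 0.6, with chromatin cut by micrococcal nuclease. RNA was sequenced in arp5, sir3, ies6, ies2 and a sir3 arp5 double deletion against BY4741, and in an ino80 deletion in the strain CY1315 against the wild type CY337, with 19 RNA libraries in all. There were 3 RNA libraries each for BY4741, arp5, sir3 and ies6, and 2 each for ies2, CY337 and ino80. The double deletion had 1. The cells for RNA also grew to an OD600 of 0.8 to 1. The RNA values come as 1 pooled column of FPKM (fragments per kilobase of gene, scaled to library size) for each of the 8 genotypes. Replicate values are therefore at hand for neither marks nor RNA. No difference below has a test or a replicate SD, the read depth is unknown, and spread is given as the range over the 16 nuclear chromosomes. Neighbouring windows share DNA fragments and are not replicates of each other.

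H3K4me3 is placed by Set1 within the COMPASS complex near the starts of transcribed genes, and H3K79me3 by Dot1 over the bodies of transcribed genes. Both enzymes depend on ubiquitin joined to histone H2B by Rad6 and Bre1 with the help of Lge1, and the PAF1 complex that travels with RNA polymerase II promotes that step. H3K79 methylation is known for weakening the binding of the silencing protein Sir3, and silent chromatin near chromosome ends lacks both marks. Arp5 is an actin-related subunit of the INO80 complex, which moves nucleosomes and is found near gene starts.

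The deletion could be read in the marks. The arp5 ChIP libraries are titled arp5 but have WT as genotype in another label, and the titles were followed. Over the 46 windows of ARP5 (YNL059C, chrXIV:512668-514935) the median of both marks was listed at exactly 0 in arp5, against -2.14 for H3K4me3 and 1.06 for H3K79me3 in BY4741. In the authors' deposited table that sets H3K79me3 of arp5 over that of BY4741, the same windows had a median of -8.42. ARP5 RNA was listed at 0 FPKM in arp5, against 35.02 in BY4741. Of the members, 2 lay in ARP5.

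Members formed short stretches inside genes. They fell into 1452 unbroken stretches with a median of 4 windows (200 bp), and 88.4% of members lay in stretches of at least 3 windows. The stretches reached into 1327 genes, and 1171 of these genes had 1 stretch only. At least 3 members were found in 959 of 6664 genes (14.4%), at least 5 in 610 genes and at least 10 in 112 genes. Gene positions are those of the reading frame on the sacCer3 build, without untranslated parts, and distance was counted from the first base of the frame to the centre of the window. When the centre lay in overlapping frames, the window counted for each gene, which concerned 138 members. Many members sat near the limit, as 2031 of them (32.6%) had a lower mark under 1.1 and 2548 other windows had one between 0.9 and 1. The members closest to the limit had 1.00003, 1.00006 and 1.00008 as their lower mark, and the closest windows outside had 0.999992, 0.999959 and 0.999796.

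Of the members, 99.6% lay inside a reading frame (98.0 to 100% by chromosome). The share was 83.1% for windows high in H3K4me3 alone, 99.6% for windows high in H3K79me3 alone and 73.5% for all nuclear windows. The median member lay 441.5 bp into its gene, and the 25th and 75th percentiles were 314.5 and 564.5 bp. Windows with H3K4me3 alone had a median of 241.5 bp and windows with H3K79me3 alone one of 1382.5 bp, so the members occupied the ground between the marks. The first 500 bp of a frame held 62.0% of members (56.6 to 70.1% by chromosome), against 24.6% of all nuclear windows, and the share of members was higher on 16 of 16 chromosomes. With both marks centred on their medians before the limit was applied, the share was 41.0%. The first 1000 bp held 98.5% of them. For 92.2% of placements the gene that held the member was also the gene with the nearest start.

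In genes of at least 1500 bp, the share of windows that were members was 2.16% in the first 100 bp and 12.3% at 200 to 300 bp. It was highest at 400 to 500 bp, with 19.9%, and was 4.65% at 700 to 800 bp and 0.579% at 1000 to 1100 bp. In the same genes the median H3K4me3 was 1.63 at 0 to 100 bp, 1.05 at 400 to 500 bp and -1.17 at 800 to 900 bp in BY4741. The median H3K79me3 was -0.23, 0.66 and 0.84 at those distances. On these log2 scales the H3K4me3 median was thus still the higher where members were most frequent. The order of the medians turned at 500 to 600 bp, with 0.60 for H3K4me3 and 0.73 for H3K79me3. The marks come from different antibodies with unknown scaling. Their BY4741 medians over all nuclear windows were -1.04 for H3K4me3 and 0.04 for H3K79me3, so the place of the crossing depends on the scale. The position of members is part of what the rule chose, since both marks have a set place along a gene.

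**Figure D1:**
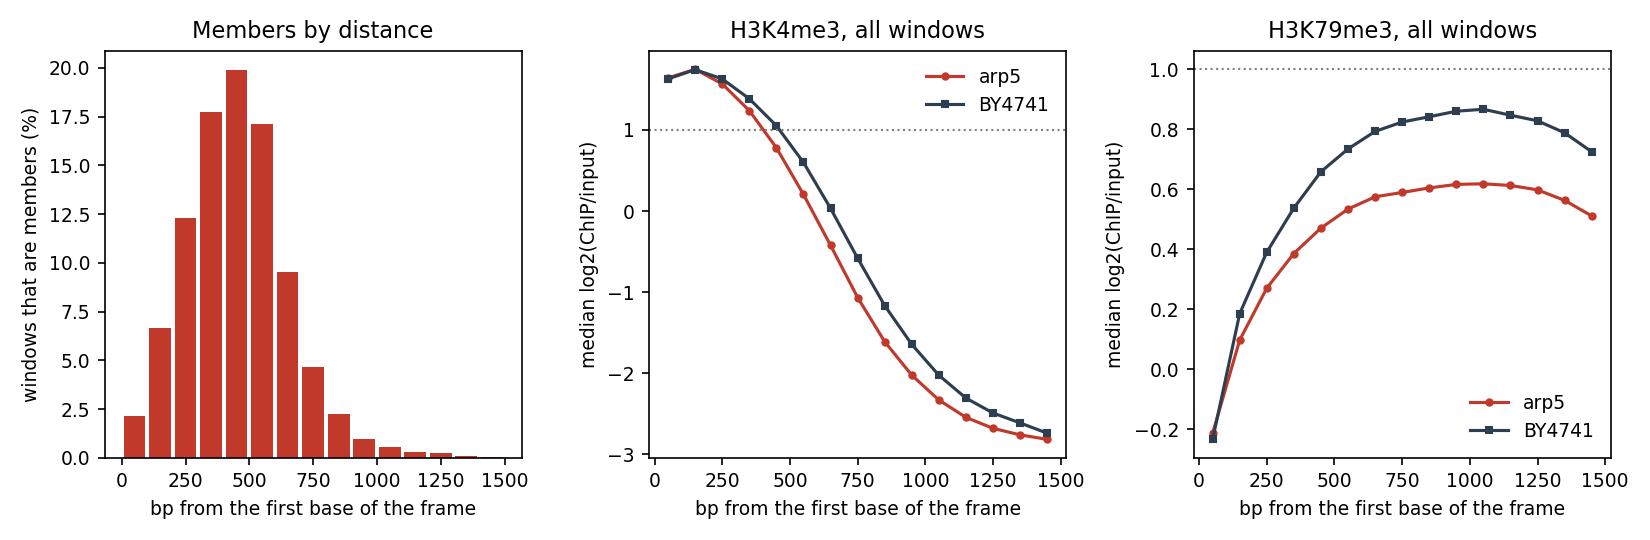
Share of windows that are members (left) and median log2 ratio of H3K4me3 (middle) and H3K79me3 (right) in arp5 and BY4741, in 100 bp bins from the first base of 2246 reading frames of at least 1500 bp. Members are most frequent at 400 to 500 bp (19.9%), where H3K4me3 declines and H3K79me3 rises in both strains. Dotted lines mark the limit of 1.

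An average profile was made around the middle of 913 of the 1452 stretches, and the marks had different flanks there. At the centre the medians in BY4741 were 1.75 for H3K4me3 and 1.24 for H3K79me3. Towards the gene start by 500 bp, H3K4me3 was still 1.45 while H3K79me3 was -0.48. Into the gene by 500 bp, H3K4me3 was -0.88 while H3K79me3 was 1.10. In the medians of this profile the members were thus the downstream shoulder of the H3K4me3 peak and the upstream edge of the H3K79me3 domain. The other stretches are not part of it, and single genes can differ, as IME4 did (below).

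NAB2 (YGL122C, chrVII:278946-280523), which encodes a nuclear poly(A) RNA-binding protein needed for mRNA export, had the most members, 20 of its 31 windows, in the longest stretch found (1000 bp, chrVII:279301-280300). In arp5 H3K4me3 and H3K79me3 were 2.13 and 0.17 at 47.5 bp, 2.56 and 1.36 at 397.5 bp, and 0.08 and 0.97 at 1197.5 bp, the last member. In BY4741 they were 1.67 and -0.25 at 47.5 bp, 2.74 and 1.99 at 397.5 bp, and 1.11 and 1.18 at 1197.5 bp. At 597.5 bp H3K4me3 was 2.53 in both strains, and the arp5 values were lower further in, and 8 of the 20 members kept both marks at 1 or above.

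The strongest single member was in MSS4 (YDR208W), the kinase that makes phosphatidylinositol bisphosphate, at chrIV:868801-868850 and 601.5 bp into the gene. It had 1.93 for H3K4me3 and 1.02 for H3K79me3 in arp5, against 2.36 and 2.45 in BY4741. With 1 window per gene, the next strongest lay in WHI4, a gene for an RNA-binding protein, in the nucleoporin genes NUP57 and NUP49, in NAB2 and in SNF5, a subunit of the SWI/SNF remodeller. The lower mark of these 5 windows in BY4741 ran between 1.93 and 2.04, and the windows on either side of the MSS4 one stood above that, with lower marks of 2.07 and 2.33. None of these 6 windows was in the Arp5 list.

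After NAB2 the genes with most members were of mixed function. NPL3, an RNA-binding protein of mRNA processing, and SUP35, a translation termination factor, had 17 members each. DED1, an RNA helicase of translation initiation, TUP1, a general corepressor, DEF1, a factor in the degradation of RNA polymerase II, and CLG1, a cyclin-like protein, had 16 each. CCT4 of the cytosolic chaperonin, GLO3, an ARF GTPase-activating protein, and SRP40, a nucleolar protein, had 15 each. By share of windows in genes of at least 1000 bp, NPL3 led with 68.0%, ahead of NAB2 with 64.5%, SRP40 and TMA46 with 60.0% each and CLG1 with 59.3%.

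Gene lists differed in how many genes held at least 3 members, beside 14.4% of all genes. Of 24 ribosome biogenesis genes 19 did (79.2%), with CBF5, the pseudouridine synthase of rRNA, NOG1, a GTPase of the large subunit, and RRP5, an rRNA processing factor, at 14 members each. Of 31 proteasome genes 22 did (71.0%), led by RPN6 with 12 members and RPN2 and RPN3 with 11 each. Of 137 ribosomal protein genes 1 did, RPL4B with 3 members, although their median BY4741 level was 5476 FPKM. These are short genes with a median frame of 771 bp, and 18 of the 137 reach 1000 bp. None of 9 core histone genes had a member. Of 16 glycolysis genes 2 had at least 3, PFK1 with 9 and PGI1 with 3, and their median frame is 1282.5 bp. Among 9 genes of translation elongation EFT1 had 11 members and EFT2 had 4, but these are near-identical copies whose reads cannot be told apart with confidence. The lists of 7 MATa-specific, 18 meiosis and sporulation and 11 COS family genes had no member. IME4, a gene of meiotic entry described below, was not in the meiosis list and had 9 members. Since the lists differ in gene length and level, these counts are descriptions.

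The genes that write or promote the marks were themselves mixed. SET1, the H3K4 methyltransferase, had 8 members, and the other 7 COMPASS genes had none. DOT1, the H3K79 methyltransferase, and JHD2, the H3K4 demethylase, had none. BRE1, the ubiquitin ligase for H2B, had 11, LGE1 had 4 and RAD6 had none. In the PAF1 complex CTR9 had 7, PAF1 5 and RTF1 4, and CDC73 and LEO1 had none. Of 15 INO80 complex genes 5 had at least 3, namely RVB1 (12), ARP8 (8), RVB2 (6), ACT1 (6) and ARP4 (4), some of which also serve other complexes. No RNA of the COMPASS, H2B ubiquitylation or PAF1 genes differed past 2-fold between arp5 and BY4741, and neither did that of DOT1 or JHD2.

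Members were rare near chromosome ends. The part of silencing by Sir proteins in this was not tested. None of the 3216 windows within 5 kb of an end was a member, and none of the 3200 windows between 5 and 10 kb. Within 5 kb 0.995% of windows were high in H3K4me3 and 4.82% in H3K79me3, and at 5 to 10 kb 3.47% and 0.594% were. Members made up 39 windows between 10 and 20 kb (0.609%), 2.01% of windows between 20 and 50 kb and 2.78% beyond 50 kb. By chromosome the share ran from 2.05% on VI to 3.003% on IV.

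Expression in BY4741 was moderate in genes with members. Those with at least 3 members had a median of 45.04 FPKM, against 33.6 in genes with no member and 35.5 in all genes. Among frames of at least 1000 bp the medians were 40.7 FPKM with at least 3 members and 20.6 FPKM with none. All genes were put into 5 classes of equal size by BY4741 FPKM. In frames of at least 1000 bp the share of genes with at least 3 members was 8.36% in the lowest class and then 20.3%, 25.3%, 37.5% and 36.7% in the classes above it. The place of members also moved with expression. Their median distance from the start was 389.5 bp in the lowest class and then 407.5, 436.5, 472.5 and 545.5 bp in genes of at least 1000 bp.

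Some genes with very high RNA had no member, and some with low RNA had several. The 6 highest FPKM among genes without a member were 51372 FPKM for CCW12, a cell wall mannoprotein, 72162 for RPL39, 72560 and 379700 for YDR524C-B and YDR524W-C, and 686770 and 698744 for RPL41A and RPL41B. These frames span 78 to 542 bp, and FPKM divides by length, so that very short genes reach extreme values. Members lay at a median of 441.5 bp into their genes, so frames this short have little room for them. At the other end, 5 or more members occurred in genes with as little as 2.01 FPKM (YDR149C), 2.09 (YGR115C) and 2.37 (YJL175W), which are all short frames. BRN1, a condensin subunit, had 5 members at 3.40 FPKM and SKG3 6 members at 3.72 FPKM. YJL175W lies on the opposite strand of SWI3, which had 16.9 FPKM in BY4741, and its 5 members also lie in that frame. Members in overlapping frames count for each frame, so a low FPKM need not describe the gene that bears the marks. Overlaps of YDR149C and YGR115C with other frames are not given here.

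Gene length mattered as well. At least 3 members occurred in 1.29% of frames under 500 bp, 6.38% at 500 to 1000 bp, 16.2% at 1000 to 1500 bp, 23.9% at 1500 to 2000 bp and 30.3% at 3000 bp or more. In frames of at least 1000 bp, 16.3% of 92 genes with an intron and 23.5% of 3500 without one had at least 3 members. Genes with a divergent upstream neighbour had them in 24.3% and those with a tandem one in 22.4%.

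**Figure D2:**
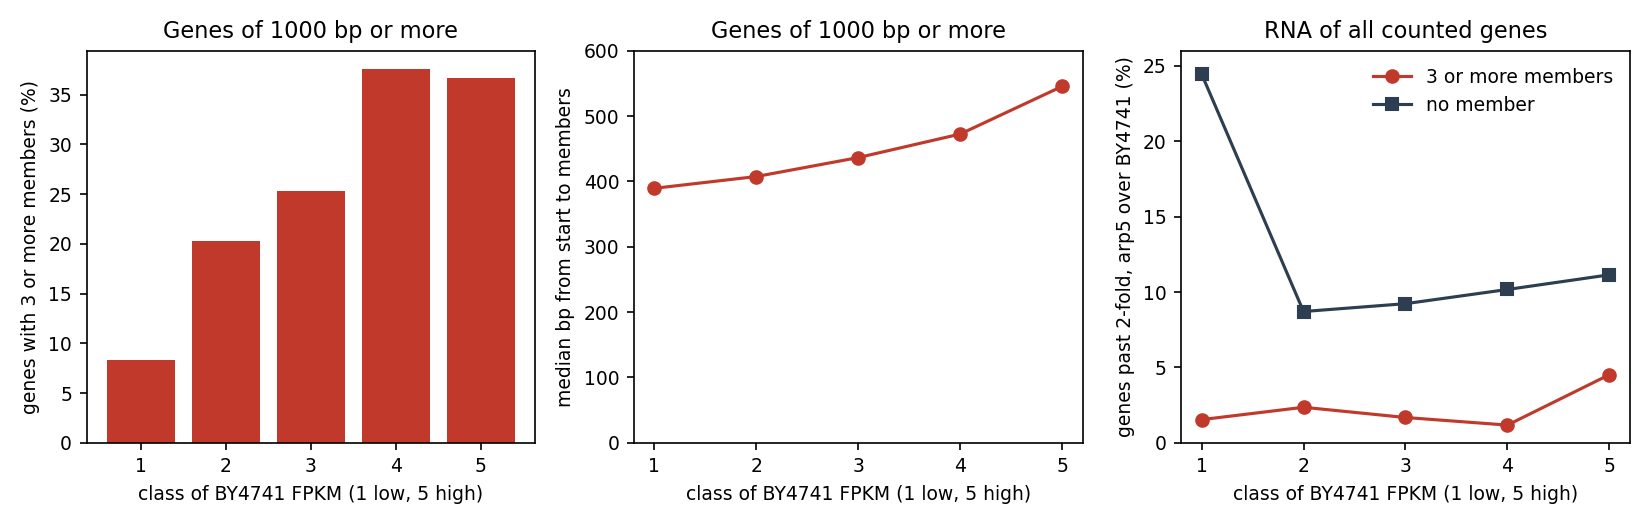
Genes in 5 classes of BY4741 FPKM: share of genes of at least 1000 bp with 3 or more members (left), median distance of members from the start of such genes (middle), and share of counted genes of any length past 2-fold in arp5 over BY4741 for genes with 3 or more members and genes with none (right). The share is 8.36% in the lowest class and 36.7% in the highest, and the distance 389.5 and 545.5 bp. Genes with members lie under genes without members in all 5 classes. Counting genes with at least 5 FPKM in either strain favours rises in the lowest class.

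Arp5 was scarce over the members. The authors' list of windows significant for Arp5 held 408 members, 6.54% of them, against 38.9% of windows with H3K4me3 alone, 4.45% of windows with H3K79me3 alone and 35.1% of all nuclear windows. The share ran from 1.42 to 14.5% by chromosome and was below that of all windows on 16 of 16 chromosomes. With a limit of 0.5 for both marks 11.2% of the windows chosen were in the list, and with a limit of 1.5 it was 2.13%. Within the list the level was also lower, with a median Arp5 log2 ratio of 0.39 in members, 0.40 in windows with H3K79me3 alone and 0.62 in all listed windows. An Arp5 log2 ratio of at least 1 was found in 0.144% of members, 0.138% of windows with H3K79me3 alone and 5.66% of all windows. Arp5 came from another strain, growth state and chromatin preparation than the marks, so levels cannot be set against each other.

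Since Arp5 windows are most frequent near gene starts, members were also compared at a fixed distance. At 300 to 600 bp into frames of at least 1000 bp, 6.16% of 3310 members were in the Arp5 list, against 18.01% of windows with H3K4me3 alone, 8.19% of windows with H3K79me3 alone and 16.9% of all windows there. Members were below all windows of that zone on 16 of 16 chromosomes, and windows with H3K79me3 alone on 15 of 16. Windows with neither mark high stood at 20.7%. Around the middle of the 913 stretches of the average profile, the Arp5 share was 5.81% at the centre. It was 51.9% at 500 bp towards the start and 14.2% at 500 bp into the gene. Depth, input and nucleosome content at these sites were not given for the Arp5 map, and their part in the counts was not tested.

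**Figure D3:**
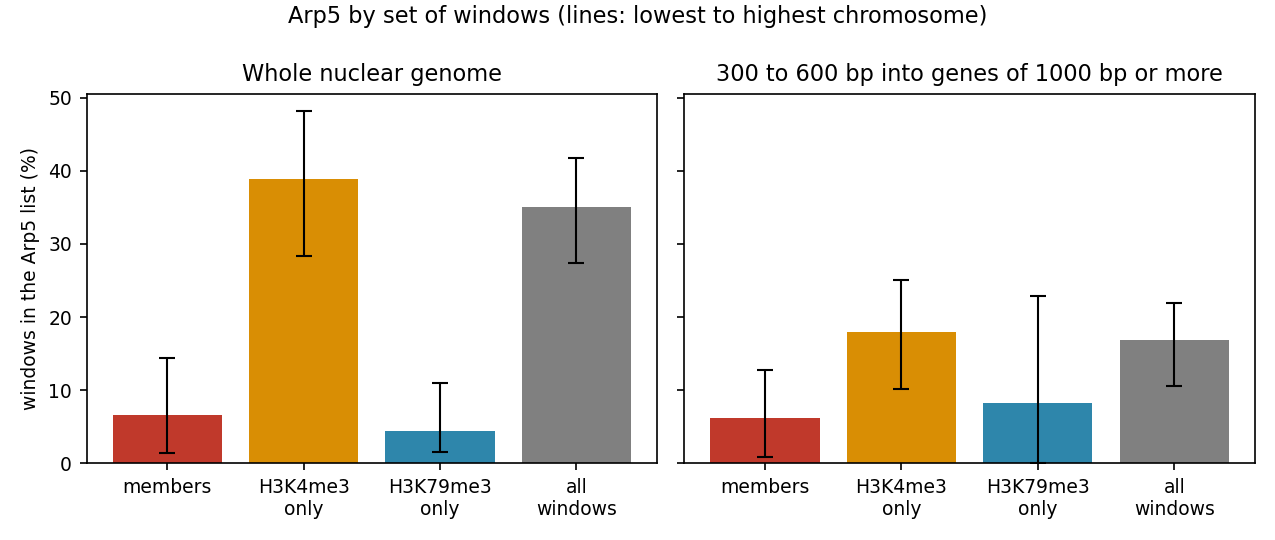
Share of windows in the authors' Arp5 list for members, windows high in H3K4me3 alone, windows high in H3K79me3 alone and all windows, over the nuclear genome (left) and at 300 to 600 bp into genes of at least 1000 bp (right). Bars are the pooled share and lines run from the lowest to the highest of 16 chromosomes. Members stand at 6.54% and 6.16%, all windows at 35.1% and 16.9%.

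Some genes held members within Arp5 windows. Among genes with at least 5 members, YHR020W had the highest mean Arp5 ratio, 0.82, with all 9 members listed. SBE2 had 0.70 over 7 members, MOT3, a zinc finger transcription factor, 0.68 over 7, and STP2, a transcription factor of amino acid uptake, 0.62 over 6. YCK1, a plasma membrane casein kinase, had 0.57 over 6. ARP7 (0.66), DHH1 (0.59) and STU2 (0.57) had 1 or 2 listed members each.

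In arp5 both marks were lower over the members. The median H3K4me3 was 1.49 in arp5, against 1.73 in BY4741, and the median difference was -0.25 (-0.32 to -0.17 by chromosome). The median H3K79me3 was 0.82 in arp5, against 1.19 in BY4741, with a median difference of -0.41 (-0.45 to -0.33 by chromosome). Over all nuclear windows the differences were -0.08 and 0.04. H3K79me3 was lower in arp5 in 96.4% of members, 96.6% of windows with H3K79me3 alone and 46.6% of all windows. H3K4me3 was lower in arp5 in 73.6% of members, 54.4% of windows with H3K4me3 alone and 55.1% of all windows. At 300 to 600 bp into frames of at least 1000 bp the median differences were -0.26 for H3K4me3 and -0.42 for H3K79me3 in members, against -0.20 and -0.10 in all windows there. In the authors' deposited table for H3K79me3 the median was -0.25 over members and 0.10 over all windows, and 93.3% of members and 41.7% of all windows were below 0 there.

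Members were picked for high values in BY4741, and such a choice favours lower values in any other library, so these differences were set beside windows chosen in arp5. At 1 or above in both marks in arp5 stood 1462 windows, and 72.2% of them were members. Their median difference was 0.09 for H3K4me3 and -0.07 for H3K79me3. With arp5 limits that take the same share of windows as in BY4741, 0.81 for H3K4me3 and 0.73 for H3K79me3, 6600 windows were chosen. Their differences were 0.06 and -0.10. The H3K4me3 difference thus had the opposite sign when arp5 chose the windows, and the H3K79me3 difference was smaller. The arp5 H3K79me3 track was also flatter as a whole, with a 90th percentile of 0.83 and a 10th percentile of -1.34, against 1.13 and -2.04 in BY4741.

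At 1 or above in arp5, 4490 members kept H3K4me3 (72.0%, against 20.5% of all windows), 1340 kept H3K79me3 (21.5%, against 3.92%) and 1055 kept both (16.9%, against 0.606%). H3K4me3 alone was kept by 3435 members, H3K79me3 alone by 285 and neither mark by 1464. These shares rest on the rule and the same libraries, and nothing is read from them beyond the counts. Chromosome III kept H3K79me3 in 40.2% of its 164 members and XII in 28.7% of its 526, and the other chromosomes in 14.3 to 25.7%. In the authors' deposited table the members of III had a median of -0.46, those of XI -0.04 and those of XII -0.10, against -0.29 to -0.26 on the other chromosomes. All windows of III, XI and XII had -0.05, 0.28 and 0.18 in the authors' deposited table, against 0.028 to 0.19 on the other chromosomes, so III was lowest and XI highest over all windows as well, while XII lay near the top of the others. The subtraction of tracks gave -0.33, -0.42 and -0.37 for the members of III, XI and XII.

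The H3K79me3 difference of members was close to that of windows with H3K79me3 alone up to a level of 1.75. At a BY4741 level of 1 to 1.25 the medians were -0.36 in members and -0.36 in the others, at 1.25 to 1.5 they were -0.47 and -0.47, at 1.5 to 1.75 they were -0.59 and -0.59, and at 1.75 to 2 they were -0.69 in 63 members and -0.79 in 275 of the others. The BY4741 value that sets the class is also the one subtracted, so a lower difference at a higher level is built in and nothing is read from that trend.

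The H3K4me3 difference of members varied along the gene, as did that of all windows. In genes of at least 1500 bp the median difference of members was -0.04 at 0 to 100 bp, -0.17 at 300 to 400 bp, -0.39 at 500 to 600 bp and -0.63 at 800 to 900 bp. Windows with H3K4me3 alone had 0.03, -0.09, -0.28 and -0.16 at those distances, and all windows 0.03, -0.10, -0.33 and -0.44. The median BY4741 H3K4me3 of members was also lower further in, with 2.14 in the first 100 bp and 1.27 at 800 to 900 bp, so place and level are not separated here. At the same BY4741 level members were further below 0. At 1 to 1.25 the medians were -0.51 in members and -0.15 in windows with H3K4me3 alone, and at 2 to 3 they were -0.07 and 0.01. Members under 1 in arp5 for H3K4me3 lay at a median of 561.5 bp, and those that kept it at 392.5 bp.

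**Figure D4:**
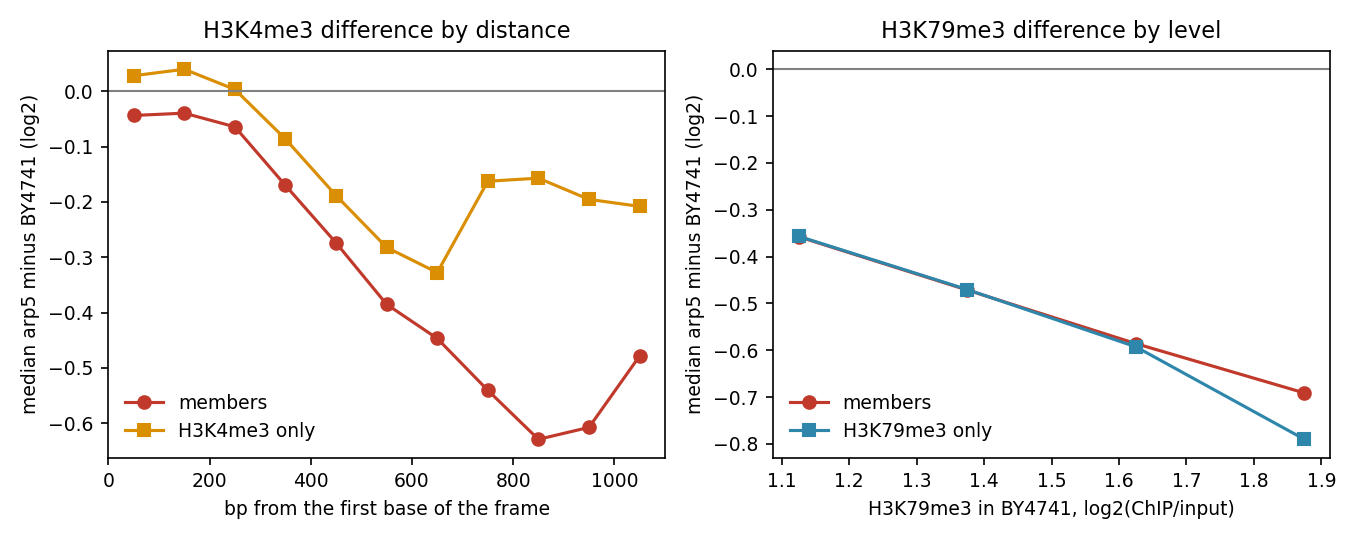
Median arp5 minus BY4741 difference (log2) of H3K4me3 by distance from the start in members and in windows high in H3K4me3 alone (left, genes of at least 1500 bp), and of H3K79me3 by BY4741 level in members and in windows high in H3K79me3 alone (right). The H3K4me3 difference of members is -0.04 in the first 100 bp and -0.63 at 800 to 900 bp. For H3K79me3 the sets overlie each other up to a level of 1.75.

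The place of double-high windows was similar in both strains. With the matched limits the median distance from the start was 420.5 bp in arp5, against 441.5 bp in BY4741. In 1005 genes with such windows in both strains the median shift was -25 bp, towards the start. In 551 genes they lay nearer the start in arp5, in 352 farther and in 102 at the same distance. Of the 6600 arp5 windows 49.0% were members, which is 51.9% of the members.

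The genes with members that write or promote the marks had a smaller H3K79me3 in arp5, as members did in general, and a varied H3K4me3. The 11 members of BRE1 averaged 1.86 for H3K4me3 in arp5, against 1.85 in BY4741, and 0.96 for H3K79me3 in arp5, against 1.32 in BY4741. The 8 members of SET1 averaged 1.46 for H3K4me3 in arp5, against 1.58 in BY4741, and 0.68 for H3K79me3 in arp5, against 1.20 in BY4741. H3K4me3 was lower in RTF1, with 0.86 in arp5, against 1.57 in BY4741 over 4 members, and higher in LGE1, with 2.47 in arp5, against 2.22 in BY4741 over 4 members. Over the 7 members of CTR9 H3K4me3 averaged 1.62 in arp5, against 1.78 in BY4741. Over the 5 members of PAF1 it averaged 1.30 in arp5, against 1.46 in BY4741. In each of these genes the mean H3K79me3 of the members was lower in arp5. It was also lower in 96.4% of all members, which the rule chose for high values in BY4741. Nothing particular to these genes is read from that.

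Single genes ranged widely around these medians. SUP35 stood out among the genes with most members, since its mean H3K4me3 over 17 members was 2.17 in arp5, against 1.77 in BY4741, and its mean H3K79me3 was 1.16 in arp5, against 1.30 in BY4741. Of its 17 members 14 kept both marks. Among genes with at least 5 members the highest H3K4me3 differences were 0.55 in TUF1, the mitochondrial elongation factor Tu, 0.54 in EMP70, an endosomal membrane protein, 0.51 in PAN1 of endocytosis, 0.51 in MYO2, a class V myosin, 0.49 in RAD23, a ubiquitin receptor, and 0.44 in AHC1 of the ADA acetyltransferase complex. The lowest were -4.15 in IME4, -3.70 in ESL1, -2.37 in NCS6 of tRNA thiolation, -1.96 in EMC2 of the endoplasmic reticulum membrane complex, -1.60 in SLY41 and -1.59 in BRE5.

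IME4 (YGL192W, chrVII:142246-144048), the RNA methyltransferase of meiotic entry, had its 9 members near the end of the frame, 1179.5 to 1579.5 bp from the start. In haploid cells an antisense RNA, known as RME2, is transcribed across IME4 from that end, and the a1-alpha2 repressor of diploid cells shuts it off. Over the members H3K4me3 averaged -2.46 in arp5, against 1.69 in BY4741, and H3K79me3 0.86 in arp5, against 1.36 in BY4741. In the first window of the frame the order was the opposite, with H3K4me3 at 1.37 in arp5, against -3.26 in BY4741. H3K4me3 thus stood at the start of IME4 in arp5 and at its end in BY4741, and the profiles crossed between 779.5 and 829.5 bp. IME4 RNA was 14.04 FPKM in arp5, 12.9 in sir3, 18.8 in ies6, 44.3 in ies2 and 9.66 in the double deletion, against 37.7 in BY4741, and 33.9 in ino80, against 47.8 in CY337. The kit does not mark the strand, so sense and antisense RNA cannot be told apart in these values. All 7 MATa-specific genes, which alpha2 turns off, were lower past 2-fold in arp5, with a median of 15.1 FPKM in arp5, against 432 in BY4741. Of 4 genes listed for the silent mating-type cassettes 2 were counted, and both were lower past 2-fold in arp5. The median of the 4 was 45.1 FPKM in arp5, against 98.3 in BY4741. Genes specific to MATalpha cells are not given here. The part of mating-type genes in the IME4 result was not tested.

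**Figure D5:**
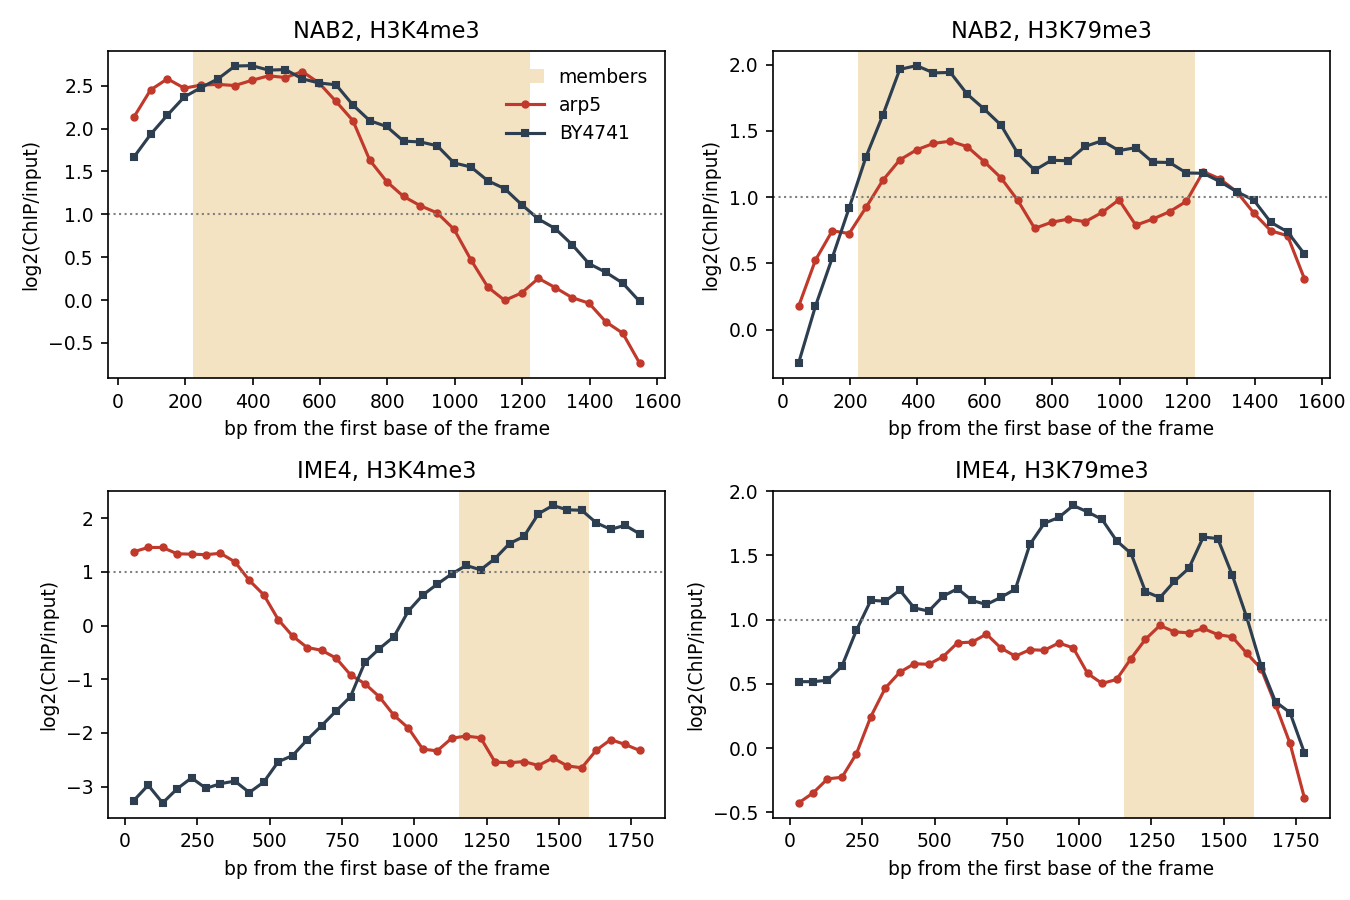
H3K4me3 (left) and H3K79me3 (right) in each 50 bp window of NAB2 (top) and IME4 (bottom) in arp5 and BY4741, by distance from the first base of the frame, with 1 library per line. Shading spans the members and the dotted line marks the limit of 1. In IME4 H3K4me3 is 1.37 in arp5 and -3.26 in BY4741 in the first window, and averages -2.46 in arp5 and 1.69 in BY4741 over the members.

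ESL1, EMC2 and NCS6 had no such exchange of ends within the windows listed. In ESL1 H3K4me3 at the first window of the frame (18.5 bp) was -1.19 in arp5, against 1.73 in BY4741, and over its 6 members it averaged -1.93 and 1.78. EMC2 kept its start, with 1.82 in arp5 and 1.95 in BY4741 at 97.5 bp, and differed at its 7 members further in, which averaged -0.30 in arp5 and 1.65 in BY4741. ESL1 RNA was 9.34 FPKM in arp5, against 10.9 in BY4741, and EMC2 RNA 135 in arp5, against 130 in BY4741. NCS6 had 30.1 FPKM in arp5, against 58.3 in BY4741. A difference in H3K4me3 over members therefore came with RNA values that were close in ESL1 and EMC2 and apart in NCS6.

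For H3K79me3 the highest mean differences in genes with at least 5 members were small, 0.09 in SEC63 of protein translocation, 0.08 in SSO1, 0.07 in TIF35, a translation initiation factor subunit, 0.015 in EMP70, 0.0043 in MPT5 and -0.0037 in BRX1. The lowest were -1.32 in the nucleoporin gene NUP157, -1.12 in YJL175W, -1.07 in SWI3, -1.02 in NGG1 of the SAGA complex, -0.93 in GYL1 and -0.93 in SSE1, a chaperone. The members of YJL175W also lie in SWI3. SSO1, a plasma membrane SNARE, had its high H3K79me3 difference beside an H3K4me3 difference of -1.50, which was not among the 6 lowest. Its 8 members averaged 0.33 for H3K4me3 and 1.25 for H3K79me3 in arp5, against 1.83 and 1.16 in BY4741, and its RNA was 82.7 FPKM in arp5, against 184 in BY4741.

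RNA of genes with members differed little between arp5 and BY4741. Of the 959 genes with at least 3 members, 947 had at least 5 FPKM in either strain and were counted. Their median log2 ratio of arp5 over BY4741, on FPKM plus 1, was -0.02. Past 2-fold, 10 of them were higher (1.06%, against 6.45% of all counted genes) and 11 lower (1.16%, against 4.0% of all counted genes). Among frames of at least 1000 bp, 9 of 833 genes with members were higher and 6 lower, against 146 and 70 of 2352 genes with none. The same order held in each class of BY4741 FPKM among counted genes of any length. Gene length was not held fixed in these classes. The median frame was 930 bp in genes with no member and 1776 bp in genes with at least 3 members. In the lowest class 1 of 65 genes with members was past 2-fold (1.54%), against 24.5% of 891 genes with none. In the highest class it was 8 of 177 (4.52%), against 11.1% of 1095. A gene under 5 FPKM in BY4741 was counted only when arp5 reached 5 FPKM, which favours rises in the lowest class. The 10th percentile in BY4741 was 4.67 FPKM in genes with no member and 12.2 with at least 3 members. The lowest class is therefore not an even comparison.

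The 4 highest ratios among genes with at least 5 members were 1.59 in ZRT2, a zinc transporter, 1.56 in BAT1 and 1.38 in ILV3, both of branched-chain amino acid synthesis, and 1.33 in TRP3 of tryptophan synthesis. BAT1 had 1371 FPKM in arp5, against 464 in BY4741. The 4 lowest were -1.46 in FES1, a chaperone cofactor, -1.36 in IME4, -1.14 in SSO1 and -1.14 in PAT1, an activator of mRNA decapping. PAT1 lies on chromosome III, as do TUP1 and PWP2, whose RNA ratios were -0.56 and -0.80. In the order PAT1, TUP1 and PWP2, RNA in BY4741 was 48.5, 57.8 and 36.7 FPKM. It was 23.9, 37.1 and 15.5 in ies6, 48.1, 65.2 and 40.6 in ies2, and 48.0, 68.1 and 39.8 in sir3. The double deletion had 50.2, 195 and 63.0. RNA in ino80 was 116, 187 and 99.9, against 74.1, 87.4 and 61.1 in CY337. In the authors' deposited table the members of PAT1, TUP1 and PWP2 stood at -1.36, -1.24 and -1.19 for H3K79me3. Subtraction of tracks gave -0.34, -0.25 and -0.24. Other genes of III were not looked at here, and no cause was tested. FES1 had 177 FPKM in arp5, against 489 in BY4741.

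The other deletions were counted in the same way, all against the BY4741 column that arp5 shares, except ino80, which was set against CY337. Among genes with at least 3 members, 0 were higher and 5 lower past 2-fold in sir3 (943 counted), 1 higher and 11 lower in ies6 (947 counted), and 2 higher and 5 lower in ies2 (947 counted). In ino80, 14 were higher and 13 lower of 952. The double deletion, with 1 RNA library, had 117 higher and 31 lower of 951 (12.3% and 3.26%), beside 16.7% and 10.4% of all genes counted. For sir3 the shares of all genes were 1.96% and 2.16%, for ies6 5.72% and 3.64%, for ies2 3.89% and 1.88%, and for ino80 8.26% and 5.14%.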

How the data were processed

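The series holds 27 libraries, 19 of RNA and 8 of ChIP DNA. For ChIP the authors deposited log2 ratios of precipitate over input in 50 bp windows, lists of the windows they called significant, and 1 table of H3K79me3 in arp5 over BY4741. The submitters' processing notes name Bowtie 0.12.9 and the build sacCer3. For RNA the authors deposited FPKM with 1 pooled column per genotype. The submitters' processing notes name Cuffdiff 2.0.2 and TopHat2 2.0.8 with Bowtie. The sources used here give neither the scaling, smoothing and caller of the ChIP tracks nor the libraries behind each FPKM column. No depth comes with any value, so there are no intervals, and no test was possible.

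Windows were joined by position and placed in 6664 nuclear reading frames by their centre, with positions from the authors' gene tables and symbols from a RefSeq R64 table that matched 5989. The mitochondrial chromosome was left out. Differences are arp5 minus BY4741 tracks. RNA ratios used a pseudocount of 1 FPKM and genes of at least 5 FPKM in either strain. The rule for members and the gene lists were chosen with earlier results of these data known. Named genes are those with most members or the largest share of windows, the strongest windows and longest stretches, and, at 5 or more members, the extremes of Arp5, of each mark's difference, of FPKM and of RNA ratio, together with the listed writers of the marks. Ribosome biogenesis, proteasome, ribosomal protein and glycolysis genes were named after their values were seen. Scripts ran in Python 3.11.15 with pandas 2.3.3 and numpy 2.4.6 and were tested on simulated data.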

Additional observations from a re-analysis of the deposited data

How the results depend on the processing

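Over 93 alternatives of the 9 main values, 60 moved the value by less than 1 SD over chromosomes, 31 moved it further and 2 turned its sign. With windows at 0.5 or above (23098), 98.4% lay inside genes and 11.2% in the Arp5 list, H3K4me3 and H3K79me3 in arp5 were 1.38 and 0.63, and their differences from BY4741 were -0.20 and -0.28. With 1.5 (376 windows), 54.3% lay in the first 500 bp and 2.13% in the Arp5 list, the marks were 1.67 and 1.02, and the differences were -0.36 and -0.60. With both BY4741 marks centred on their medians, 41.0% lay in the first 500 bp, and H3K4me3 in arp5 was 0.88 with a difference of -0.39. With windows at 1 or above in arp5, 57.6% lay in the first 500 bp, the marks were 1.81 and 1.10, the H3K4me3 difference reversed to 0.095, the H3K79me3 difference was -0.073 and BY4741 RNA was 66.2 FPKM. The matched limits in arp5, added after seeing the data, gave 66.1%, 1.74 and 0.88, a reversed H3K4me3 difference of 0.063, an H3K79me3 difference of -0.10 and 58.6 FPKM. The first 1000 bp held 98.5% of members, and 0.144% lay in Arp5 windows of 1 or above. The authors' deposited table gave -0.25 for the H3K79me3 difference. Less the median over all windows the differences were -0.17 and -0.46. Genes with at least 10 members had a median of 59.8 FPKM in BY4741. Beyond the choice of windows the causes of these changes were not tested. The share of genes with members past 2-fold in arp5 (2.22%) lay between 1.79% and 2.89% under its 7 alternatives, and since its SD over chromosomes (2.38) exceeds the value, the SD says nothing about its stability. No paired analysis was possible because each strain has 1 ChIP library per mark and 1 pooled RNA column, and no replicate could be left out for the same reason.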
